A study of Mus musculus with 8 samples.

Results

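The 34 genes described here encode the enzymes and transporters of glycolysis together with the oxygen sensors and classical targets of the hypoxia response. They were listed by mouse symbol, matched to the Ensembl identifiers of the count table, and make up 34 of the 55487 genes counted. All 34 passed the filter on low counts that left 19392 genes for testing, so none was lost to it. The samples are 8 bulk RNA-seq libraries. The cells were embryonic fibroblasts of mice (MEFs) with the genotype C57BL/6 Rosa26-rtTA (+/T) with Tet-O-OSKM (+/T), in which doxycycline switches on a cassette of the reprogramming factors Oct4, Sox2, Klf4 and Myc.

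All 8 cultures received doxycycline for 72 h, at a dose on which the sources used here disagree. The 4 treatments given alongside it were 10 µM NSC636819 (NSC, which inhibits KDM4A and KDM4B, demethylases of histone H3), 100 µM S-adenosylmethionine (SAM, the methyl donor of the cell), 2 µM vitamin B12 with 2 µM PF-9366 (B12 + MAT2Ai, where PF-9366 inhibits the SAM-producing enzyme MAT2A), and 2 µM vitamin B12 alone (B12). MEF 61.5 and MEF 61.3 each received every treatment, which gave n = 2 per treatment. Each MEF line stands for 1 embryo. No library with doxycycline alone was analysed here, so every comparison is with another treated culture, and a low-oxygen culture was not part of the design.

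Glycolysis splits glucose into pyruvate and yields ATP without oxygen, and lactate dehydrogenase then regenerates the NAD+ that the pathway needs. Oxygen controls the pathway through the hypoxia-inducible factors: in the presence of oxygen the prolyl hydroxylases encoded by Egln1, Egln2 and Egln3 mark HIF-1α for destruction, and when oxygen falls HIF-1α escapes and activates genes of glucose uptake, glycolysis, angiogenesis and matrix modification. Fibroblasts that are driven towards pluripotency are known to shift from oxidative phosphorylation to glycolysis early on. Because HIF-1α is regulated mainly by protein stability, its mRNA level does not report its activity.

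Libraries held 27498180 to 38565685 counted reads, and 26645 to 27835 genes had at least 1 read. Over all genes tested, the standard error (SE) of a treatment difference on the log2 scale had a median of 0.0988 to 0.101. Fibroblast markers such as Col1a1 and Col3a1 were abundant in every library, with a summed level of 81389 to 115908 counts-per-million units (CPM) over 12 markers and none at 0. Macrophage markers were present too, and their summed level over 17 genes was 2178 and 4280 CPM in NSC libraries, 618 and 1907 CPM in SAM libraries, 2332 and 4811 CPM in B12 + MAT2Ai libraries, and 2984 and 5402 CPM in B12 libraries (MEF 61.5, then MEF 61.3). All 17 were lower in SAM than in B12 and all 17 were lower in MEF 61.5 than in MEF 61.3, and none was at 0. In bulk RNA, fewer macrophages and less RNA per macrophage cannot be told apart. The 4 reprogramming factors were each higher in SAM than in B12, by 0.35 to 1.33 on the log2 scale, and counts per gene do not separate cassette from endogenous transcripts.

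Glycolytic enzymes dominated the 34 genes. Levels were scaled by exon length (RPKM, which is CPM divided by exon length in kilobases). This length joins the exons of all annotated transcripts of a gene, so the order of genes holds for that length only. Averaged over the 8 libraries, the levels were highest for Pkm, pyruvate kinase, at 120 RPKM. Next were Pgam1, phosphoglycerate mutase, at 108 RPKM, and Ldha, lactate dehydrogenase A, at 92.8 RPKM. Aldoa, Pgk1, Eno1, Tpi1 and Gapdh followed at 54.5 to 85.2 RPKM, and Hif1a stood among them at 64.6 RPKM. Many 75-base stretches of Gapdh (80.3%), Pgk1 (67.5%), Eno1 (65.4%) and Pgam1 (40.6%) transcripts also occur in other annotated genes. The share was 19.6% for Pkm and 1.49% to 5.23% for Aldoa, Hif1a, Tpi1 and Ldha. How reads from such stretches were counted is not given, so the order of these genes also depends on that counting. The hypoxia-induced genes ranged more widely, with P4ha1, a collagen prolyl hydroxylase, at 39.2 RPKM and Ankrd37 at 0.133 RPKM. Only 4 genes lay below 1 RPKM, namely Slc2a3 (0.952), Egln3 (0.934), Car9 (0.615) and Ankrd37 (0.133). In mean CPM, which leaves length out, Pkm was also highest at 601, followed by Hif1a at 381 and Eno1 at 344.

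**Figure D1:**
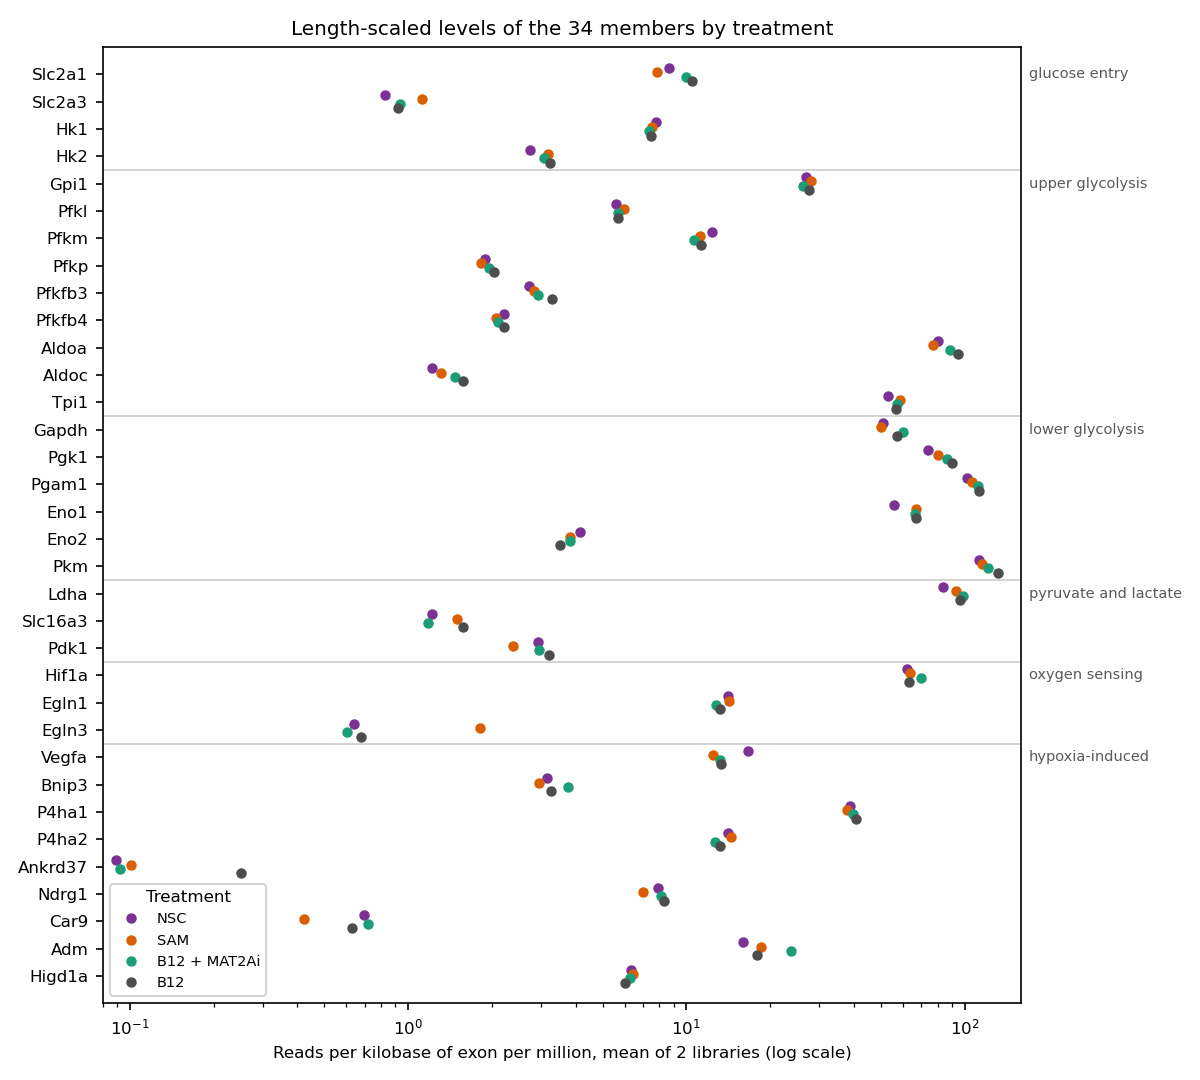
Mean level of each of the 34 genes in NSC, SAM, B12 + MAT2Ai and B12 libraries (points, n = 2 each), in RPKM on a log scale, grouped by role. The treatments overlie each other for most genes, while Egln3 stands to the right in SAM and the points span 0.0891 RPKM (Ankrd37 in NSC) to 131 RPKM (Pkm in B12).

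Most of the 34 genes kept a narrow range over the libraries. The highest library was less than 1.5 times the lowest for 24 of the 34, and less than 2 times for 31. Over the 16 enzymes from hexokinase to lactate dehydrogenase the median of this ratio was 1.27 and the highest was 1.62, reached by Aldoc. The exceptions were Egln3, with a ratio of 7.50, Ankrd37, with a ratio of 4.53 that rested on 58 reads in all 8 libraries, and Car9, carbonic anhydrase 9, with a ratio of 2.12 and 395 reads.

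Where several of the 34 genes encode isozymes of 1 step, 1 of them held most of their summed length-scaled level. Hk1 held 67.8% to 74.0% of Hk1 and Hk2, Pfkm, the muscle-type phosphofructokinase, 57.3% to 63.0% of Pfkl, Pfkm and Pfkp, Aldoa 98.0% to 98.8% of Aldoa and Aldoc, and Eno1 92.9% to 95.4% of Eno1 and Eno2. Isozymes outside the 34 genes, such as Hk3, Eno1b and Eno3, are not in these sums. The Pfkm share rests on the exon lengths used, 3340 bases for Pfkm against 6675 for Pfkl and 13401 for Pfkp. In mean CPM over the 8 libraries Pfkl and Pfkm were alike, at 38.2 and 38.0, and Pfkp was at 25.8. Slc2a1, which encodes the glucose transporter GLUT1, made up 83.8% and 90.9% of the summed Slc2a1 and Slc2a3 level in SAM (MEF 61.5 and MEF 61.3), against 90.3% and 93.4% in B12. Egln3 was minor to the sensor Egln1, with 14.2% and 7.83% of their summed level in SAM against 5.84% and 3.73% in B12. Egln2, outside the 34 genes and this sum, had 53.4 and 47.8 CPM in B12, beside 50.3 and 45.0 CPM for Egln1. Both SAM libraries exceeded both B12 libraries in the Egln3 share, whereas the Slc2a1 shares of the treatments overlapped.

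Promoter sequences are shown for the 5 genes with the smallest adjusted p-values in any comparison of treatments. HIF binds the core letters ACGTG or GCGTG of the hypoxia response element, and the 250 bases upstream of the RefSeq start site (GRCm38.p6) were searched for both on either strand. Capitals mark each match, read on the strand of the gene, 5′ to 3′.
Egln3, chr12:54203875-54204124, minus strand: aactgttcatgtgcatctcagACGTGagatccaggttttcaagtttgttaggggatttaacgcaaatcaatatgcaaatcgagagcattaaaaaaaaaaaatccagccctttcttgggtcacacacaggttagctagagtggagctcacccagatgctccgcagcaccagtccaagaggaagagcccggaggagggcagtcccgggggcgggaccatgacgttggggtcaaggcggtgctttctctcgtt
Slc2a1, chr4:119108495-119108744, plus strand: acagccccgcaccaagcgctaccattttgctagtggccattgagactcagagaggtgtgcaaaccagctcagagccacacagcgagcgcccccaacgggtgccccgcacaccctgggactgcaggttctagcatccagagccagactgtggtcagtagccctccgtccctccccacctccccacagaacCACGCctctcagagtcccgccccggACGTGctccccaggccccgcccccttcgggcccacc
Pdk1, chr2:71872974-71873223, plus strand: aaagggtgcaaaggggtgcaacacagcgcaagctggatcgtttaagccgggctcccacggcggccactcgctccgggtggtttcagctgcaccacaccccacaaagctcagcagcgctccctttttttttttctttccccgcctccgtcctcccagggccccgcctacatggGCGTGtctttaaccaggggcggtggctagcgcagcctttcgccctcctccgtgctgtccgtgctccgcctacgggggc
Adm, chr7:110627407-110627656, plus strand: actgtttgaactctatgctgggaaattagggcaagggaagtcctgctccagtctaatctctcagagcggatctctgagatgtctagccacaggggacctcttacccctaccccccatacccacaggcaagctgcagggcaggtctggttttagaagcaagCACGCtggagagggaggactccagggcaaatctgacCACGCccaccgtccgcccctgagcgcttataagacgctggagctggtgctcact
Vegfa, chr17:46032378-46032627, minus strand: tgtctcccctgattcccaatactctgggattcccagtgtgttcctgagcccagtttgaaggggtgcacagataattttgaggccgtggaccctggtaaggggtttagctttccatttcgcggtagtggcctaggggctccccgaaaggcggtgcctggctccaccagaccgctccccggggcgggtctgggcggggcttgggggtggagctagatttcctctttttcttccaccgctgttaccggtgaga
The Egln3 match began 229 bases upstream of the start site, those of Slc2a1 61 and 36 bases upstream, that of Pdk1 78 bases upstream, and those of Adm 90 and 54 bases upstream, while no match lay in the Vegfa window shown. Vegfa has 2 windows, and 1 of them, not shown, held a core within its 300 bases. A second Pdk1 match began 2 bases upstream and ran across the start site, so it is not capitalised. Of the 32 genes with a window, 25 held at least 1 core in the 300 bases from 250 upstream to 50 downstream (78.1%), against 43.8% of the 32851 mouse windows of that length that were searched. The 32 are 1 window per gene, the one nearest to the GENCODE start, whereas the 32851 include every window of a gene. The shares are thus of unlike units. The core letters overlap the E-box CACGTG that Myc proteins bind, and CACGTG itself lay in 4 of the 32 windows (12.5%) against 7.15% of all windows. The windows of the 32 genes were richer in G and C, with a median of 62.8% against 52.4%, and the part of base composition in the difference was not tested. Slc2a3 and Ndrg1 were not matched. Hk1, Aldoa, Pkm and Vegfa were counted as without a core, although another window of each held at least 1. Pfkm and Pdk1 were counted as with a core, although another window of each held none. A match describes letters only and is not evidence of binding.

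SAM against B12 asks what the methyl donor does in place of the vitamin that feeds its synthesis. Of the 34 genes 1 rose and 4 fell, against a background of 7.71% of all 19392 genes called, 2.78% higher and 4.93% lower (edgeR quasi-likelihood test with MEF as a term, called at an adjusted p below 0.05). With MEF left out of the model, no call between treatments was kept for any of the 34 genes. The gene that rose was the HIF prolyl hydroxylase Egln3, and those that fell were Slc2a1, Pdk1, Aldoa and Ndrg1. The median over the 34 genes was −0.09 on the log2 scale, beside −0.002 over all genes. It was −0.04 without the SAM library of MEF 61.3 or the B12 library of MEF 61.3, and −0.16 without the SAM library of MEF 61.5.

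Egln3 (ENSMUSG00000035105, chr12:54178981-54203860 of GRCm38) encodes PHD3, an oxygen sensor that is itself induced by HIF. It had 6.68 CPM (240 reads) in MEF 61.5 and 3.01 CPM (102 reads) in MEF 61.3 under SAM, against 2.31 CPM (88 reads) and 1.29 CPM (45 reads) under B12. Both SAM libraries lay above both B12 libraries, and MEF 61.5 lay above MEF 61.3 in each treatment. The log2 fold change was 1.42 ± 0.16 (SE), a 2.67-fold rise with an edgeR adjusted p of 0.000189, and it was 1.51 within MEF 61.5 and 1.19 within MEF 61.3. The call was kept without any single library and was lost when MEF was left out of the model (edgeR adjusted p = 0.661). The sensor Egln1 (PHD2), which held most of the summed Egln1 and Egln3 level, had a log2 fold change of 0.10 ± 0.06 (edgeR adjusted p = 0.401). Hif1a differed by less than its SE, with a 95% interval of −0.15 to 0.16.

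Slc2a1 (ENSMUSG00000028645, chr4:119108711-119137983) brings glucose into the cell. It had 24.9 and 30.2 CPM in SAM (MEF 61.5 and MEF 61.3), against 33.8 and 39.8 CPM in B12, so both SAM libraries were lower than both B12 libraries. It fell by 0.42 ± 0.07 on the log2 scale, a 1.34-fold difference (edgeR adjusted p = 0.00249), and the call was lost only when MEF was left out of the model. Slc2a3, the high-affinity transporter GLUT3, had a log2 fold change of 0.28 ± 0.12 that missed the threshold (edgeR adjusted p = 0.223).

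Pdk1 (ENSMUSG00000006494, chr2:71873224-71903858) encodes a kinase that switches off pyruvate dehydrogenase. Its level was 19.1 and 17.9 CPM in SAM against 23.8 and 26.2 CPM in B12, with no overlap. It fell by 0.43 ± 0.08 on the log2 scale (1.35-fold, edgeR adjusted p = 0.00423), and the call was lost without the SAM library of MEF 61.3, where the log2 fold change was −0.34. Lactate dehydrogenase Ldha and the lactate exporter Slc16a3 (MCT4) both differed from B12 by less than their SE.

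Aldoa (ENSMUSG00000030695, chr7:126795234-126800751), the aldolase that splits the hexose backbone in upper glycolysis, had 219 and 231 CPM in SAM against 258 and 292 CPM in B12, without overlap. It fell by 0.29 ± 0.06 on the log2 scale (edgeR adjusted p = 0.0163). The call was lost without the B12 library of MEF 61.3, without the SAM library of either MEF, and in a model of the 4 libraries alone. Ndrg1 (ENSMUSG00000005125, chr15:66929318-66969640), a stress-responsive gene induced by hypoxia, had 44.3 and 48.2 CPM in SAM against 51.7 and 58.2 CPM in B12, again without overlap. It fell by 0.25 ± 0.06 (edgeR adjusted p = 0.0257), and this call was lost under 9 of 15 alternatives, among them the removal of any 1 of 6 libraries, which were all but the B12 and NSC libraries of MEF 61.5.

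The rest of the pathway moved little under SAM. The other 15 of 16 glycolytic enzymes had log2 fold changes of −0.26 to 0.12, with 95% intervals reaching from −0.59 at the lowest to 0.31 at the highest, and the median of the 16 was −0.04. That median was −0.14 without the SAM library of MEF 61.5, −0.10 without its B12 library, and −0.02 without the SAM library of MEF 61.3. In lower glycolysis Gapdh and Pkm lay nearest to the threshold, at −0.19 ± 0.07 and −0.19 ± 0.06 (edgeR adjusted p = 0.131 and 0.116). Pfkfb3, whose product makes the activator of phosphofructokinase, was at −0.22 ± 0.07 (edgeR adjusted p = 0.0922). Among hypoxia-induced genes Vegfa was at −0.10 ± 0.07 and P4ha2 at 0.13 ± 0.06, with edgeR adjusted p of 0.537 and 0.257. The 8 hypoxia-induced genes other than Ndrg1 ranged from −1.27 to 0.13, 5 of them below 0.

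Summed over the 16 enzymes, the level was 2716 and 2513 CPM in SAM libraries against 2754 and 2871 CPM in B12 libraries, and over the 9 hypoxia-induced genes it was 395 and 410 CPM against 404 and 433 CPM. In CPM the enzyme sums of the 2 treatments did not overlap, and the hypoxia-induced sums were lower in SAM within each MEF only. As an unscaled share of counts, the enzymes took 0.282% and 0.246% in SAM against 0.278% and 0.281% in B12. The hypoxia-induced genes took 0.0409% and 0.0401% against 0.0407% and 0.0423%. On that measure both sets were slightly higher in SAM within MEF 61.5. Macrophage markers differed far more between the same libraries, 618 and 1907 CPM in SAM against 2984 and 5402 CPM in B12, and their part in the changes of Egln3, Slc2a1, Pdk1, Aldoa and Ndrg1 was not tested.

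**Figure D2:**
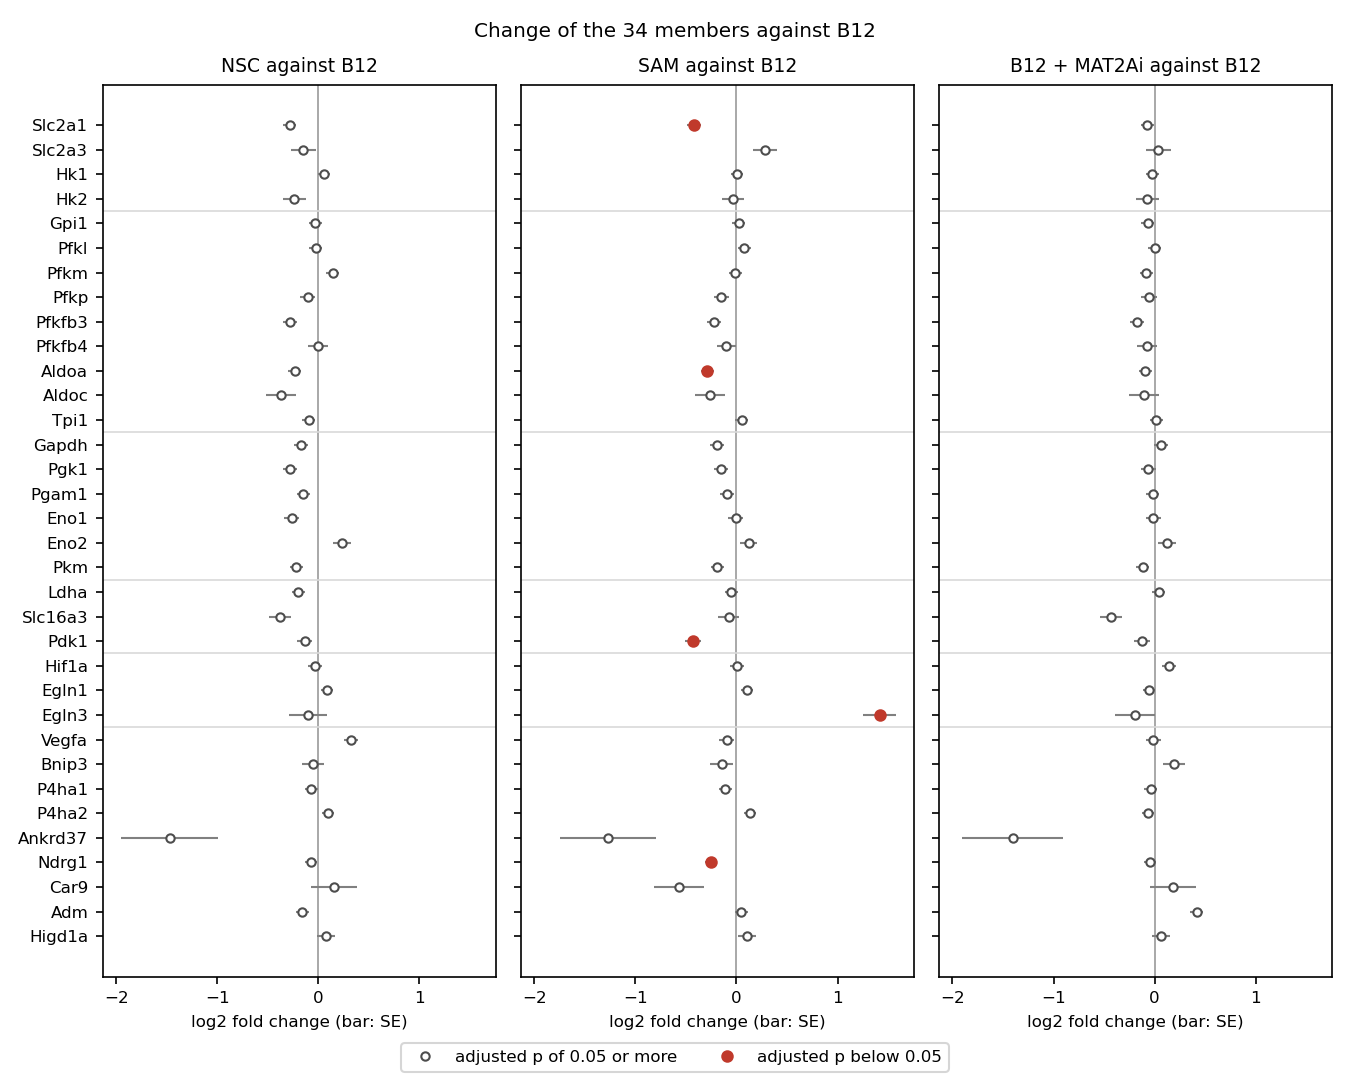
Log2 fold change (points) and SE (bars) of each of the 34 genes in NSC, SAM and B12 + MAT2Ai, each against B12, with genes grouped by role and filled points past an adjusted p of 0.05. The 5 filled points all lie under SAM, led by Egln3 at 1.42, and the 3 comparisons share the B12 libraries.

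NSC against B12 called none of the 34 genes, against 1.91% of all genes, 0.284% higher and 1.62% lower. At an unadjusted p below 0.05 there were 14, a count given without the share of all genes at that cut. The DESeq2 Wald test also called 0. The values lay mostly on one side: 26 of the 34 were below 0 with a median of −0.10, and 13 of the 16 glycolytic enzymes were below 0 with a median of −0.16, beside −0.002 over all genes, of which 50.5% were below 0. Without the B12 library of MEF 61.3 the enzyme median was −0.09, and without that of MEF 61.5 the median over the 34 genes was −0.18. These medians describe correlated genes of a few libraries and carry no test.

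Phosphoglycerate kinase Pgk1 had 165 and 167 CPM in NSC libraries (MEF 61.5 and MEF 61.3), against 190 and 213 CPM in B12 libraries, with a log2 fold change of −0.28 ± 0.07 and an edgeR adjusted p of 0.0884. Of its 75-base transcript stretches 67.5% also occur in other annotated genes, as do 65.4% of those of Eno1, which limits how well their reads can be placed. Ldha had 297 and 258 CPM in NSC against 323 and 313 CPM in B12, at −0.20 ± 0.07 (edgeR adjusted p = 0.218). Both genes were lower in each NSC library than in either B12 library, without passing the threshold.

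Hk2, the inducible hexokinase, had 15.8 and 17.0 CPM in NSC against 20.1 and 18.6 CPM in B12, at −0.24 ± 0.11 (edgeR adjusted p = 0.418). Slc2a1 had 27.1 and 33.4 CPM against 33.8 and 39.8 CPM, with the highest NSC library just below the lowest B12 library, at −0.28 ± 0.07 (edgeR adjusted p = 0.0692). Eno1 was at −0.26 ± 0.07 and Slc16a3 at −0.38 ± 0.11, with edgeR adjusted p of 0.126 and 0.127. Eno2, the neuronal enolase, was the enzyme highest above 0, at 0.23 ± 0.09 (edgeR adjusted p = 0.279).

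Vegfa (ENSMUSG00000023951, chr17:46016993-46032369), the angiogenic growth factor, stood out among the genes above 0. It had 67.3 and 75.2 CPM in NSC, against 54.9 and 59.0 CPM in B12, and both NSC libraries exceeded both B12 libraries. The log2 fold change of 0.32 ± 0.07 missed the threshold narrowly (edgeR adjusted p = 0.0566), and it passed with robust variance estimation, without a filter on low counts, and without the SAM library of MEF 61.3 (adjusted p = 0.0406, 0.00117 and 0.0499). Hif1a had 342 and 388 CPM in NSC and 368 and 377 CPM in B12, a difference smaller than its SE with a 95% interval of −0.19 to 0.12. Over the 16 enzymes the summed level was 2532 and 2437 CPM in NSC, against 2754 and 2871 CPM in B12, and the hypoxia-induced sum was 406 and 444 CPM against 404 and 433 CPM. The enzyme sums of the 2 treatments did not overlap and the hypoxia-induced sums did. Macrophage markers summed to 2178 and 4280 CPM in NSC and 2984 and 5402 CPM in B12, and their part was not tested.

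B12 + MAT2Ai against B12, the comparison that blocks SAM synthesis downstream of B12, also called 0 of the 34 genes, in a comparison that called 0.0877% of all genes, 0.0722% higher and 0.0155% lower. At an unadjusted p below 0.05 there were 4, and the DESeq2 Wald test called 1, both given without the share of all genes. For the 16 enzymes the log2 fold changes ran from −0.12 to 0.12, and their 95% intervals stayed between −0.43 and 0.31, so differences of more than 1.35-fold lower or 1.24-fold higher lay outside every interval. The median was −0.04 over the enzymes and −0.05 over all 34 genes. Without the B12 library of MEF 61.3 these medians were 0.018 and −0.010, and without MEF 61.5 under B12 + MAT2Ai they were 0.013 and −0.00097. Hif1a had 415 and 407 CPM in B12 + MAT2Ai against 368 and 377 CPM in B12, at 0.14 ± 0.07 (edgeR adjusted p = 0.644).

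Adm (ENSMUSG00000030790, chr7:110627661-110629820), adrenomedullin, a vasodilator peptide gene induced by hypoxia, came nearest to a call, and with Gapdh it was singled out after its values were seen. It had 41.3 and 35.9 CPM in B12 + MAT2Ai (MEF 61.5 and MEF 61.3), against 31.1 and 26.8 CPM in B12. Both B12 + MAT2Ai libraries were the higher ones. The log2 fold change was 0.42 ± 0.06 with an edgeR adjusted p of 0.0522, and the threshold was passed in the DESeq2 Wald test (adjusted p = 0.0327), with robust variance estimation (0.0265), in a model of the 4 libraries alone (0.00505), without a filter (0.000208) and without the B12 library of MEF 61.3 (0.0169). The monocarboxylate exporter Slc16a3 was at −0.43 ± 0.11 (edgeR adjusted p = 0.334).

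Ankrd37, a HIF target of low abundance here, had 5 and 5 reads in NSC, 8 and 3 reads in SAM, 4 and 5 reads in B12 + MAT2Ai, and 14 and 14 reads in B12. Both B12 libraries held more reads than any of the other 6. Against B12 the log2 fold changes were −1.47 ± 0.48 in NSC, −1.27 ± 0.47 in SAM and −1.40 ± 0.50 in B12 + MAT2Ai, none of them called (edgeR adjusted p = 0.209, 0.156 and 0.555), and all 3 share the same B12 libraries. Car9 had 1.88 and 1.33 CPM in NSC, 1.06 and 0.887 CPM in SAM, 1.86 and 1.44 CPM in B12 + MAT2Ai, and 1.31 and 1.58 CPM in B12, with SAM the lowest within each MEF. It had no call in any comparison of treatments under the main settings. Without a filter on low counts and in a model of the 4 libraries alone it was called in NSC against SAM (0.73 and 0.71, edgeR adjusted p = 0.0187 and 0.0443). The same 2 settings called it in SAM against B12 + MAT2Ai (−0.75 and −0.76, edgeR adjusted p = 0.0214 and 0.0409).

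**Figure D3:**
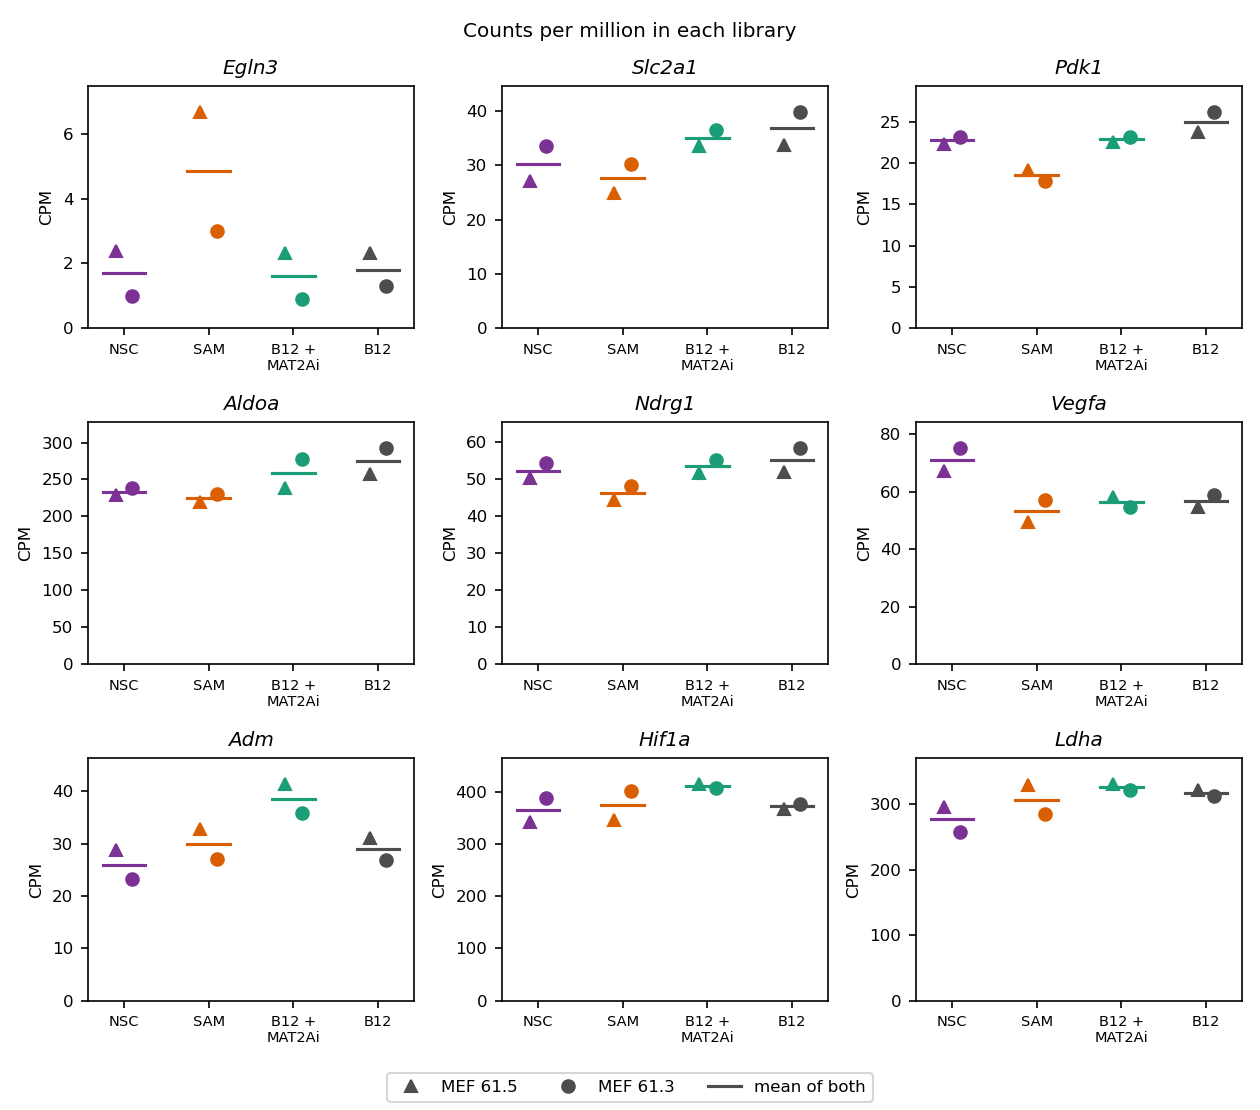
Level in CPM of 9 genes in each library, with NSC, SAM, B12 + MAT2Ai and B12 from left to right, triangles for MEF 61.5, circles for MEF 61.3 and a line at the mean (n = 2). Egln3 reached 6.68 and 3.01 CPM in SAM, Vegfa was highest in NSC at 67.3 and 75.2 CPM, and Adm was highest in B12 + MAT2Ai at 41.3 and 35.9 CPM.

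NSC and SAM differed from each other in 3 of the 34 genes, 2 higher and 1 lower in NSC, against 9.52% of all genes, 5.10% higher and 4.42% lower. Egln3 had 2.39 and 1.00 CPM in NSC against 6.68 and 3.01 CPM in SAM. It was lower in NSC within each MEF and fell by 1.51 ± 0.16 on the log2 scale (edgeR adjusted p = 0.000263). Vegfa had 67.3 and 75.2 CPM in NSC against 49.5 and 57.0 CPM in SAM, without overlap, at 0.42 ± 0.07 (edgeR adjusted p = 0.00519). That call was lost without the SAM library of MEF 61.5 and without the NSC library of MEF 61.3. Pdk1 had 22.4 and 23.2 CPM in NSC against 19.1 and 17.9 CPM in SAM, at 0.30 ± 0.08 (edgeR adjusted p = 0.0341), a call lost under 8 of 15 alternatives, including the removal of any 1 of the B12 + MAT2Ai, SAM and NSC libraries. None of the 16 enzymes was called, with 4 at an unadjusted p below 0.05, a count given without the share of all genes at that cut. Slc2a3 and Eno1 just missed the threshold, at −0.43 ± 0.12 and −0.26 ± 0.07 (edgeR adjusted p = 0.0504 and 0.0518). All 17 macrophage markers were above 0 in NSC against SAM, 16 of them called, and their part in these 3 calls was not tested.

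The comparisons with B12 + MAT2Ai share libraries with those above and are given side by side with them. SAM against B12 + MAT2Ai called 5 of the 34 genes, 1 higher and 4 lower, against 8.17% of all genes, 3.36% higher and 4.81% lower. Egln3 had 6.68 and 3.01 CPM in SAM against 2.31 and 0.890 CPM in B12 + MAT2Ai, at 1.61 ± 0.17 (edgeR adjusted p = 0.000165). The 4 lower genes were Adm at −0.37 ± 0.06, Slc2a1 at −0.35 ± 0.07, Pdk1 at −0.31 ± 0.08 and Gapdh at −0.26 ± 0.07 (edgeR adjusted p = 0.00442, 0.00973, 0.0346 and 0.0392).

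These lower calls depended on single libraries. The Adm call was lost without MEF 61.3 under B12 + MAT2Ai, and the Slc2a1 call without MEF 61.5 under either treatment. The Pdk1 call was lost without either B12 + MAT2Ai library, the SAM library of MEF 61.3 or the NSC library of MEF 61.3. The Gapdh call was lost without any 1 of the B12 + MAT2Ai, SAM and NSC libraries, and 80.3% of the 75-base stretches of Gapdh transcripts occur in other annotated genes. All 17 macrophage markers were below 0 in SAM, 16 of them called, and their part was not tested.

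NSC against B12 + MAT2Ai called 2 of the 34 genes, 1 in each direction, against 3.58% of all genes, 1.76% higher and 1.83% lower. Adm had 28.7 and 23.2 CPM in NSC against 41.3 and 35.9 CPM in B12 + MAT2Ai, and fell by 0.58 ± 0.07 on the log2 scale, a 1.49-fold difference with no overlap (edgeR adjusted p = 0.00168). Every removal of a single library kept this call. Vegfa had 67.3 and 75.2 CPM in NSC against 58.1 and 54.7 CPM in B12 + MAT2Ai, at 0.33 ± 0.07 (edgeR adjusted p = 0.036), and the removal of any 1 of these 4 libraries ended the call. Of the 17 macrophage markers 16 were below 0 in NSC, 2 of them called, and their part was not tested.

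The 2 embryos differed as well. In MEF 61.5 against MEF 61.3, with treatment in the model, 8 of the 34 genes were called, 5 higher and 3 lower, against 18.8% of all genes, 8.41% higher and 10.3% lower. Egln3 was again the gene with the widest gap, at 2.31 to 6.68 CPM in MEF 61.5 and 0.890 to 3.01 CPM in MEF 61.3, with a log2 fold change of 1.14 ± 0.13 (edgeR adjusted p = 9.13e-05). MEF 61.5 exceeded MEF 61.3 in each of the 4 treatments, although the ranges of the 2 MEFs overlapped. The other higher genes were Slc2a3 (0.41 ± 0.09), Adm (0.25 ± 0.05), Tpi1 (0.15 ± 0.04) and Egln1 (0.14 ± 0.04). The lower genes were Slc2a1 (−0.24 ± 0.05), Pfkfb3 (−0.21 ± 0.05) and P4ha2 (−0.16 ± 0.04). The calls of Tpi1, P4ha2 and Egln1 were each lost under 7 or more of 13 alternatives, and that of Pfkfb3 without the NSC library of MEF 61.3 and in the DESeq2 Wald test. Libraries of 1 MEF come from a single embryo, so these values compare the 2 embryos. In both MEF 61.5 and SAM Egln3 was higher, Slc2a1 was lower and all 17 macrophage markers were lower, each against MEF 61.3 and B12. Of the 4 reprogramming factors, 3 were called higher in MEF 61.5, with 1 not called, and 4 were called higher in SAM. Their median log2 fold changes were 0.67 and 0.89. The part of the macrophage markers or the reprogramming factors in these values was not tested.

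**Figure D4:**
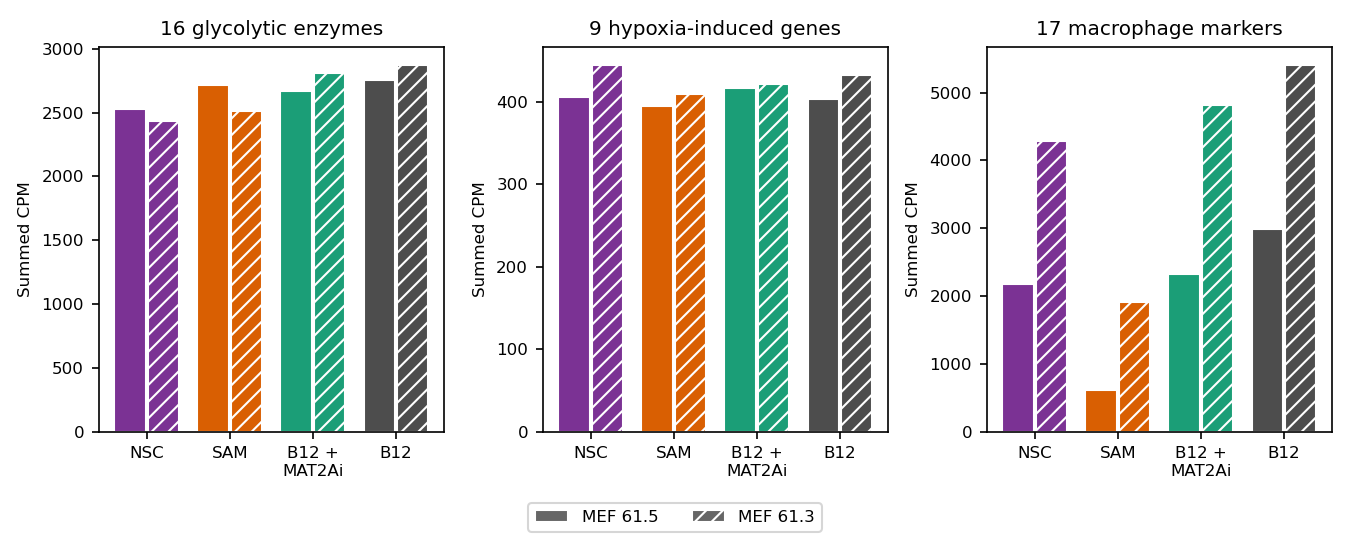
Summed CPM per library of the 16 glycolytic enzymes, the 9 hypoxia-induced genes and the 17 macrophage markers, with NSC, SAM, B12 + MAT2Ai and B12 from left to right, plain bars for MEF 61.5 and hatched bars for MEF 61.3. The enzyme sums lie between 2437 and 2871 CPM and the hypoxia-induced sums between 395 and 444 CPM, while the macrophage sums run from 618 to 5402 CPM.

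Genes around the 34 were read from lists of related pathways. Of all genes, SAM against B12 called 2.78% higher and 4.93% lower. In either direction, NSC against B12 called 1.91%, B12 + MAT2Ai against B12 0.0877% and SAM against B12 + MAT2Ai 8.17%. Among 15 HIF subunits and regulators, which include Epas1 (HIF-2α), Arnt and Vhl, 1 was higher and 0 were lower in SAM against B12: Arnt2, a partner of HIF-α subunits, had 29.0 and 30.8 CPM in SAM against 23.3 and 20.3 CPM in B12, at 0.46 ± 0.09 (edgeR adjusted p = 0.00827). The list median was 0.02. No gene of this list was called in NSC or in B12 + MAT2Ai against B12. In SAM against B12 + MAT2Ai the single call was again Arnt2, at 0.35 ± 0.09 (edgeR adjusted p = 0.0355).

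Another 33 hypoxia-induced genes were read in the same way. In SAM against B12, 3 were higher and 4 lower, with a median of 0.04, beside 2.78% higher and 4.93% lower over all genes. The 3 with the greatest change were all lower: Hmox1, heme oxygenase 1, by 1.19 ± 0.13, Gpr146 by 1.02 ± 0.12 and Tfrc, the transferrin receptor, by 1.00 ± 0.08 on the log2 scale (edgeR adjusted p = 0.000106, 0.000163 and 1.32e-05). The higher ones, named after their values were seen, were Ddit4 (0.46 ± 0.08), Ak4 (0.42 ± 0.10) and Loxl2 (0.29 ± 0.06), of which Ddit4 encodes the mTORC1 inhibitor REDD1. In NSC against B12, 3 of the 33 were lower, including Tfrc (−0.62 ± 0.07) and Hmox1 (−0.60 ± 0.12), and 0 were higher. Over all genes 1.62% were lower and 0.284% higher in that comparison.

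Of the 16 tested isozymes and transporters that belong to glycolysis but not to the 34 genes, 1 was lower and 0 were higher in SAM against B12. This was Hk3, the hexokinase of blood cells, with 5.31 and 14.1 CPM in SAM against 20.1 and 33.1 CPM in B12 (−1.53 ± 0.13, edgeR adjusted p = 1.93e-05). Hmox1 and Tfrc, which macrophages also express in handling iron, and Hk3 were lower in each SAM library than in the B12 library of the same MEF, as the macrophage markers were, and the part of macrophage RNA in these values was not tested. None of the 16 was called in NSC or in B12 + MAT2Ai against B12. Over all genes, SAM against B12 called 4.93% lower and 2.78% higher. NSC against B12 called 1.91% and B12 + MAT2Ai against B12 0.0877% in either direction.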

How the data were processed

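The authors deposited raw read counts for each gene, made by aligning stranded reads to mm10 (GRCm38) with STAR (2.5.2b per the submitters' processing notes) and counting with featureCounts in the reverse-stranded setting. Technical replicates were added together, and how reads that match several genes were counted is not given in the sources used here. Identifiers were matched to GENCODE M21, which gave symbols for 55227 genes and left 260 without; of 2 identifiers named Aldoa the one at the RefSeq start was used.

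Genes were kept by filterByExpr (minimum count 10) and scaled by TMM. One edgeR 4.0.16 quasi-likelihood model (R 4.3.3, limma 3.58.1) was fitted to the 8 libraries, with terms for treatment and for MEF, and p-values were adjusted by Benjamini-Hochberg over 19392 genes. Residual and prior degrees of freedom were 3 and 7.92. The 6 pairs of treatments and the 2 MEFs were compared, and these comparisons share libraries. SE and 95% intervals come from this model. Its p-values set a difference against the spread left after treatment and MEF are fitted, with only 2 embryos. CPM uses TMM-scaled totals, and RPKM divides it by the GENCODE exon length joined over all transcripts of a gene. DESeq2 1.42.0 was an alternative, beside other scaling, filters, variance estimation, sample choices and the removal of each library. Fold changes within a MEF used a prior count of 2.

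The block is MEF, since each MEF line derives from 1 embryo and received every treatment. To check the pairing, deviations from treatment means correlated between libraries of the same MEF at 0.424 to 0.559 over the 6 pairs of treatments. Every pair of libraries differed by more than counting noise, by a variance ratio of at least 6.40. Promoter sequences are from RefSeq, with the window nearest to the GENCODE start for 32 of the 34 genes, and the comparison over all windows leaves out chromosome 18. Genes named with values in every library were those called against B12 or between NSC and SAM, with Hif1a, Hk2, Ldha, Pgk1, Slc2a1 and Vegfa, and in other lists up to 3 called genes per comparison. Some genes of the lists outside the 34 are not reported here. The genes and lists were chosen with earlier results of these data known.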

Additional observations from a re-analysis of the deposited data

How the results depend on the processing

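Without MEF as a replicate block, the model called 0 of the 34 genes in each of the 6 comparisons of treatments, and 0 to 2 of all genes, so every call between treatments rests on the pairing of libraries by embryo. SAM against B12 had 3 calls in place of 5 in a model of the 4 libraries alone. NSC against B12 had 7 in place of 0 without a filter on low counts, where more genes enter the variance estimate, and 1 with robust variance estimation. B12 + MAT2Ai against B12 had 1 in place of 0 in the DESeq2 Wald test, with robust estimation and with 4 libraries alone, and 2 without a filter. NSC against SAM had 6 in place of 3 without a filter, 5 with robust estimation and 9 with 4 libraries alone. SAM against B12 + MAT2Ai had 3 in place of 5 in the DESeq2 Wald test, 6 without a filter and 7 with 4 libraries alone, NSC against B12 + MAT2Ai 6 in place of 2 both without a filter and with 4 libraries alone, and MEF 61.5 against MEF 61.3 had 4 in place of 8 in the DESeq2 Wald test. The cause was not tested. Apart from the model without MEF, the counts in this paragraph stand without the share of all genes called under the same setting. They do not show whether the 34 genes differ from the rest. Leaving out 1 library at a time gave 2 to 5 calls for SAM against B12, 0 to 2 for NSC against B12, 0 to 1 for B12 + MAT2Ai against B12, 1 to 6 for NSC against SAM, 2 to 7 for SAM against B12 + MAT2Ai, 1 to 5 for NSC against B12 + MAT2Ai and 4 to 8 for the MEFs. An arm left with 1 library is assumed to vary like the others.

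Of the values of single genes that were called or larger than their SE, 2088 kept their direction and side of the threshold under an alternative, 82 lost and 65 gained the call, and 5 changed sign, each without 1 library and none of them called. Those 5 had leave-one-out ranges of −0.14 to 0.000497 for Slc2a1 in B12 + MAT2Ai against B12, −0.40 to 0.00849 for Hk2 in NSC against SAM, −0.00376 to 0.24 for Eno2 in SAM against B12, −0.00621 to 0.24 for Eno2 in NSC against SAM and −0.20 to 0.0351 for Vegfa in SAM against B12 + MAT2Ai. The promoter count of 25 was the same with the upstream bases alone. Depth limits Ankrd37 (58 reads), Car9 (395) and Egln3 (700).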

Other observations

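Neighbouring routes of glucose were read from lists outside the 34 genes. Of all genes, SAM against B12 called 4.93% lower and 2.78% higher. In the pentose phosphate pathway, 2 of 7 genes were lower and 0 higher in SAM against B12, namely its 2 NADPH-producing dehydrogenases G6pdx (−0.27 ± 0.06) and Pgd (−0.26 ± 0.06), with edgeR adjusted p of 0.0154 and 0.0257, and the list median was −0.20 beside −0.002 over all genes. In glycogen metabolism, 2 of 12 genes were lower and 0 higher in the same comparison. They included the branching enzyme Gbe1, at 8.15 and 10.5 CPM in SAM (MEF 61.5 and MEF 61.3) against 13.8 and 16.9 CPM in B12 (−0.72 ± 0.08, edgeR adjusted p = 0.000227). None of the 13 genes of pyruvate entry to mitochondria and none of the 5 tested gluconeogenesis genes was called by edgeR in SAM, NSC or B12 + MAT2Ai against B12. Those 3 comparisons called 7.71%, 1.91% and 0.0877% of all genes. Macrophage markers were lower in the SAM libraries as well, and their part in these values was not tested.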
